A study of Bos taurus with 38 samples.

Results

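The selenoprotein genes followed here in longissimus dorsi (LD) muscle of 38 newborn calves were SELENOP (ENSBTAG00000054085), SELENOO (ENSBTAG00000000647), GPX1 (ENSBTAG00000054195) and GPX3 (ENSBTAG00000043553). They are 4 of the 27607 genes in the count table, found by these Ensembl identifiers, and all 4 are among the 12964 genes that passed the filter on low counts. The study itself singled these genes out on the same calves. Neither their direction against control calves nor their differences between supplemented groups are therefore independent evidence. Biopsies were taken by needle from LD muscle 12 to 48 h after birth, and 1 poly-A library was sequenced per calf. The dams were Angus or Angus-cross cows aged 5 to 9 years, and every calf is a separate animal. In CTR (n = 10 calves, 4 of them female) the dams received no Se-yeast. In TR1 (n = 9, 2 female), TR2 (n = 10, 3 female) and TR3 (n = 9, 5 female) they were given 3 Se-yeast boluses a week for 13 weeks, or 105 mg Se per week, in the first (TR1), the second (TR2) or the third (TR3) trimester of pregnancy. All dams, those of CTR included, could eat a mineral mix with 120 mg/kg Se from Na selenite, so that CTR is a group without the boluses and not a group without Se. The dams of CTR were on average 6.90 years old, those of TR1 6.33, those of TR2 7.00 and those of TR3 5.89.

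Selenoproteins carry selenocysteine, a selenium-containing amino acid that the ribosome inserts at a codon that otherwise ends translation. SELENOP is secreted, mainly by the liver, and delivers Se to other tissues, whereas GPX1 in the cytosol and GPX3 in plasma and extracellular fluid reduce peroxides with glutathione. SELENOO is a mitochondrial pseudokinase that attaches AMP to other proteins. In young cattle and sheep, a lack of Se or vitamin E causes nutritional myodegeneration (white muscle disease), and in many tissues a lack of Se lowers GPX1 mRNA more than that of most other selenoproteins.

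Total counts per calf ranged from 12921223 to 17471666, with a median of 14121366, and levels are given as CPM, the count of a gene scaled to the calf's total, after TMM normalization, whose factors lay between 0.887 and 1.35. The spread within groups went beyond counting error, since for each pair of calves the chi-square over genes was at least 16.98 times its degrees of freedom. All 8 skeletal muscle markers were measured, and their summed level ran from 35671 to 154572 CPM. Calf A2052 of TR1 had the lowest muscle marker sum and the highest sum of 11 genes of the glucocorticoid and fasting response, at 7644 CPM. It and calf A2099 of TR2 had the highest scores for that response, 2.57 and 1.61 as the mean z-score of the 11 genes, and results that rest on them are given with and without them. By edgeR's quasi-likelihood test with Benjamini-Hochberg adjustment, no gene of the 12964, these 4 included, was called at 0.05 when a supplemented group was compared with CTR (0% in each of the 3 comparisons). DESeq2 called 1 gene (0.00772%) in TR2 and 0 in TR1 and TR3. Before adjustment, edgeR put 331 genes (2.55%) under 0.05 for TR1, 1081 (8.34%) for TR2 and 175 (1.35%) for TR3.

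SELENOP transcript was higher on average in each of the Se-supplemented groups than in CTR, by similar amounts, and none of these differences passed the test. In CTR its level ran from 62.9 to 143 CPM with a median of 71.9. In TR1 the lowest, median and highest values were 57.5, 102 and 149 CPM, and in TR2 they were 59.7, 98.3 and 143 CPM. In TR3 they were 82.7, 101 and 138 CPM. Most CTR calves lay low in the range of the other groups, while CTR calves A2038 and A2034 lay among the highest of all. Of the TR3 calves 9 of 9 lay above the CTR median, as did 7 of 9 in TR1 and 9 of 10 in TR2, and 6 of 10 CTR calves lay below the lowest TR3 calf. The groups overlapped in every comparison. In bulk muscle a lower share of cells that make a transcript and less transcript per cell cannot be told apart, here and in the results that follow.

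Mean SELENOP was 84.0 ± 27.3 CPM (SD, n = 10) in CTR and 102 ± 27.9 (n = 9) in TR1. It was 98.1 ± 21.6 (n = 10) in TR2 and 101 ± 16.0 (n = 9) in TR3. Adjusted for dam age and sex, the log2 fold change against CTR was 0.22 in TR1 (SE 0.16, 95% interval -0.10 to 0.55, unadjusted p = 0.172 in edgeR's quasi-likelihood test). It was 0.24 in TR2 (SE 0.16, interval -0.08 to 0.55, p = 0.132 in the same edgeR test) and 0.21 in TR3 (SE 0.17, interval -0.12 to 0.55, p = 0.207). These intervals allow a level from 0.93 to 1.47 times that of CTR in TR1 and from 0.92 to 1.47 times in TR3. The mean of the 3 supplemented groups stood 0.23 above CTR on the log2 scale (SE 0.13, p = 0.0915 and adjusted p = 1.00 by edgeR's quasi-likelihood test), in a comparison where 1.94% of all genes had an unadjusted p under 0.05. Between supplemented groups the log2 differences were 0.01 for TR2 vs. TR1, -0.01 for TR3 vs. TR1 and -0.03 for TR3 vs. TR2, each with an SE of 0.16 to 0.17, and their intervals run from -0.37 to 0.35. Before adjustment 6.15% of all genes were under 0.05 in TR2 vs. TR1.

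A few calves set the size of the SELENOP differences. Without CTR calf A2038, the highest of its group, the TR1 and TR2 differences were both 0.34 and the TR3 difference was 0.33 on the log2 scale. Without calf A2052 the TR1 difference was 0.14, without calf A2099 the TR2 difference was 0.16, and without calf A2033 the TR3 difference was 0.14. The lowest adjusted p that any of the 4 genes reached in any comparison with 1 calf left out was 0.260 by edgeR's quasi-likelihood test.

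**Figure D1:**
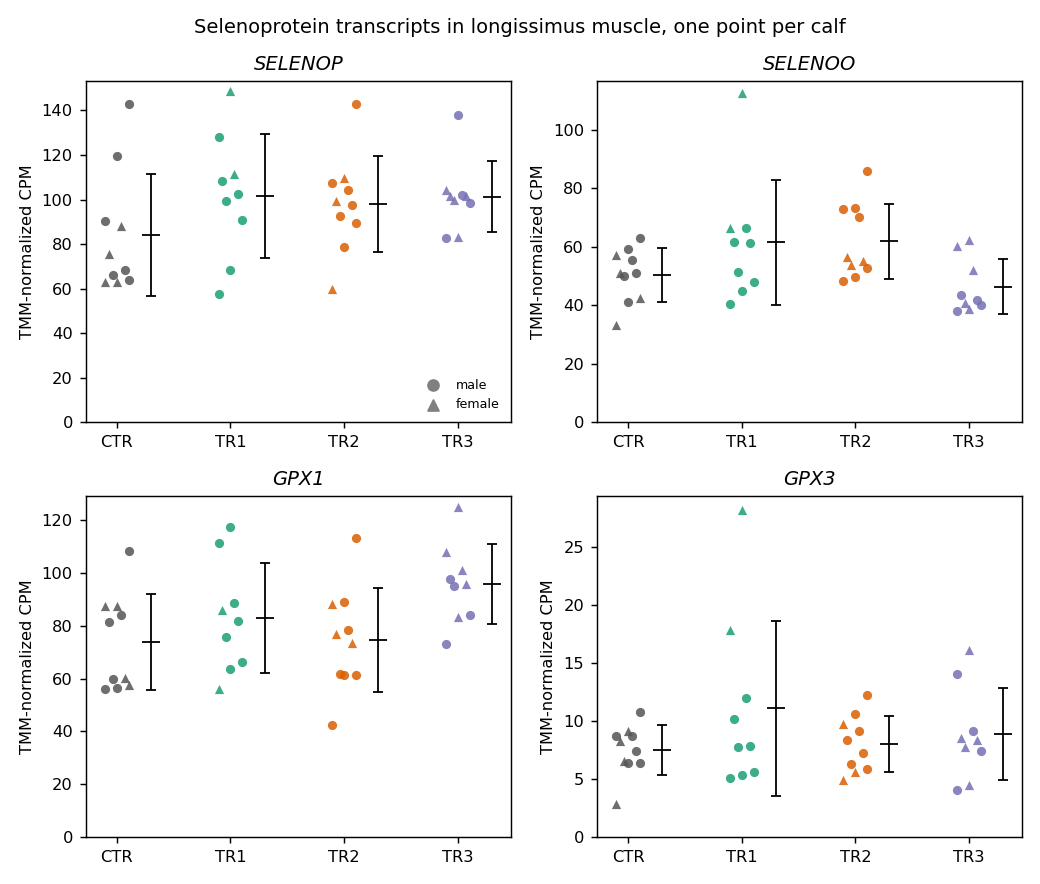
Level of each selenoprotein transcript in each calf, in TMM-normalized CPM on a linear axis from 0, by group, with circles for males and triangles for females and the group mean ± SD beside the points. SELENOP and GPX1 show all 9 TR3 calves above the CTR medians of 71.9 and 71.0 CPM, and calf A2052 stands apart in SELENOO at 113 CPM.

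SELENOO, the mitochondrial AMP transferase, was the gene whose groups differed most, with higher levels in TR1 and TR2 than in TR3, although no comparison passed after adjustment over all genes. CTR calves ran from 33.2 to 63.0 CPM with a median of 51.1. In TR1 the lowest, median and highest values were 40.6, 61.3 and 113 CPM, and in TR2 they were 48.1, 55.9 and 86.1 CPM. In TR3 they were 38.0, 41.9 and 62.5 CPM. Of the TR1 calves 3 and of the TR2 calves 4 lay above the highest CTR calf, and none of the TR3 calves did. In TR3, 6 calves lay between 38.0 and 43.5 CPM, females A2074 and A2087 among them. The other 3 calves, all female, lay higher, so the group was split rather than evenly spread.

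Mean SELENOO was 50.4 ± 9.12 CPM (SD, n = 10) in CTR and 46.4 ± 9.44 (n = 9) in TR3. It was 61.5 ± 21.4 (n = 9) in TR1 and 61.9 ± 12.7 (n = 10) in TR2. Against CTR the log2 fold change of SELENOO was 0.26 in TR1 (SE 0.15, p = 0.0929) and -0.20 in TR3 (SE 0.16, p = 0.227), both unadjusted p by edgeR's quasi-likelihood test. The TR3 value was -0.066 when only TR3 and CTR were fitted and -0.12 without calf A2052. In TR2 it was 0.31 (SE 0.14, 95% interval 0.02 to 0.61, unadjusted p = 0.0368 and adjusted p = 0.589 by edgeR's test). TR3 lay below TR1 by a log2 difference of -0.46 (SE 0.16, interval -0.77 to -0.14, unadjusted p = 0.00602, adjusted p = 0.816 by edgeR). It lay below TR2 by -0.51 (SE 0.16, interval -0.84 to -0.18, unadjusted p = 0.00353), which corresponds to 0.70 times the TR2 level. The adjusted p of that difference was 0.463 by edgeR's test and 0.331 by DESeq2. Ranked by unadjusted p, SELENOO was at place 91 of 12964 genes in TR3 vs. TR1 and at place 77 in TR3 vs. TR2, comparisons in which 5.85% and 9.46% of all genes had an unadjusted p under 0.05. The study had named SELENOO as higher in TR1 and TR2 on these calves, so these ranks are a description. The test of any difference among the 4 groups gave an unadjusted p of 0.00855 and an adjusted p of 0.817 by edgeR, with 6.09% of all genes under 0.05 before adjustment.

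The TR1 side of this pattern leaned on calf A2052. Without it the log2 difference of SELENOO was 0.12 for TR1 vs. CTR and -0.25 for TR3 vs. TR1. The TR2 difference held its size better, at 0.24 vs. CTR without calf A2099 and between -0.56 and -0.42 for TR3 vs. TR2 over all single calves left out.

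GPX1, the cytosolic glutathione peroxidase, was highest in TR3, whose calves also formed its tightest group. In CTR it ran from 55.9 to 108 CPM with a median of 71.0. In TR1 the lowest, median and highest values were 56.2, 81.8 and 117 CPM, and in TR2 they were 42.2, 75.2 and 113 CPM. In TR3 they were 73.1, 96.1 and 125 CPM. CTR calves split into 5 between 55.9 and 60.4 CPM and 5 between 81.6 and 108 CPM, and the lower 5 all lay below the lowest TR3 calf. Calves A2099 of TR2 and A2052 of TR1, the highest in SELENOO of their groups, were the lowest in GPX1 of the same groups.

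Mean GPX1 was 73.9 ± 18.3 CPM (SD, n = 10) in CTR and 96.0 ± 15.2 (n = 9) in TR3. It was 83.1 ± 20.8 (n = 9) in TR1 and 74.7 ± 19.7 (n = 10) in TR2. The log2 fold change in TR3 was 0.34 (SE 0.16, 95% interval 0.01 to 0.68, or 1.27 times the CTR level). Its unadjusted p was 0.0449 and its adjusted p 1.00 by edgeR's quasi-likelihood test, and it kept a value between 0.29 and 0.43 when each calf was left out in turn. In TR1 the log2 fold change was 0.16 (SE 0.16, interval -0.16 to 0.49) and in TR2 it was 0.02 (SE 0.15, interval -0.29 to 0.33). The TR2 value changed sign when library size replaced TMM, to -0.020. TR3 exceeded TR2 by 0.32 (SE 0.17, unadjusted p = 0.0629, adjusted p = 0.530 by edgeR's test) and TR1 by 0.18 (SE 0.17). Without calf A2052 the TR3 vs. TR1 difference was 0.067, and without calf A2040 the TR1 difference from CTR was 0.092.

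GPX3, the secreted glutathione peroxidase, had the fewest counts, from 36 to 414 per calf, and the widest spread. CTR calves ran from 2.84 to 10.7 CPM with a median of 7.82. In TR1 the lowest, median and highest values were 5.09, 7.79 and 28.1 CPM, and in TR2 they were 4.94, 7.78 and 12.2 CPM. In TR3 they were 4.06, 8.30 and 16.1 CPM. The group medians were close together, and the groups differed in their highest calves, A2047 and A2052 in TR1 and A2074 and A2033 in TR3.

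Mean GPX3 was 7.50 ± 2.16 CPM (SD, n = 10) in CTR and 11.1 ± 7.56 (n = 9) in TR1. It was 7.98 ± 2.41 (n = 10) in TR2 and 8.87 ± 3.96 (n = 9) in TR3. Its log2 fold change was 0.42 in TR1 (SE 0.27, 95% interval -0.13 to 0.97, unadjusted p = 0.132 by edgeR's quasi-likelihood test) and 0.22 without calf A2047. It was 0.12 in TR2 (SE 0.26) and 0.03 in TR3 (SE 0.28). The TR2 value was -0.0039 without calf A2099 and the TR3 value -0.15 without calf A2033, so that neither had a stable sign. With no covariates the TR3 value was 0.24.

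**Figure D2:**
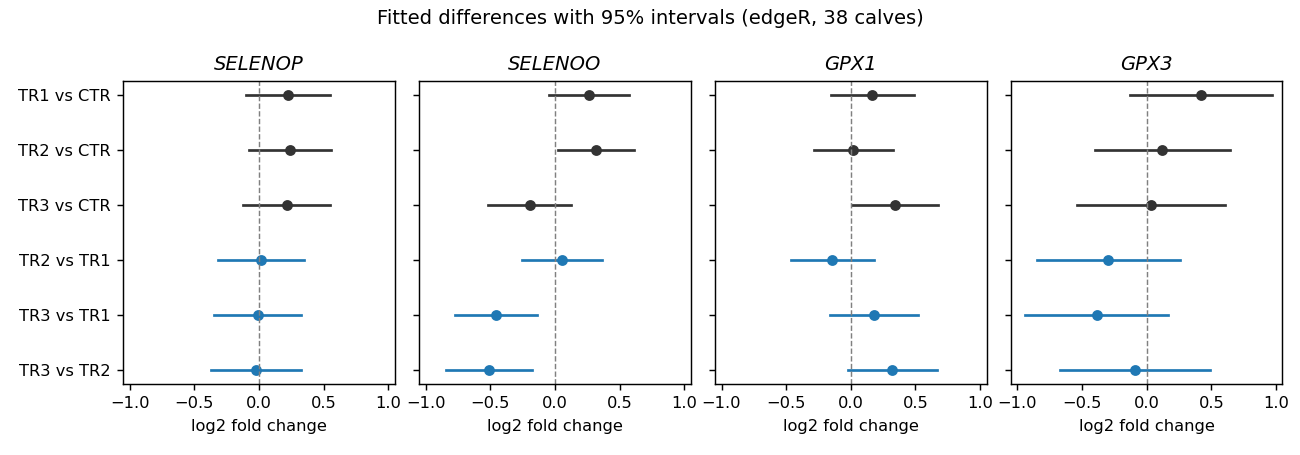
Fitted log2 fold change of each gene with its 95% interval from edgeR, in 6 comparisons, those with CTR in black and those between supplemented groups in blue, with the dashed line at 0. The intervals that leave out 0 are those of SELENOO in TR2 vs. CTR (0.31), TR3 vs. TR1 (-0.46) and TR3 vs. TR2 (-0.51) and of GPX1 in TR3 vs. CTR (0.34), and none passed adjustment over all genes.

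The study describes its choice of genes as a test applied after a variance-stabilizing transformation, with limits on its adjusted p and on a fold change. The measure computed here is not taken from that description but was rebuilt as the difference of group means on the transformed scale, centred on the mean and divided by the SD of such differences over genes, which leaves out how far calves of a group spread. This standardized difference of SELENOP was 1.75 for TR1, 1.34 for TR2 and 2.49 for TR3. For SELENOO it was 1.52, 1.55 and -0.94, for GPX1 1.04, 0.07 and 3.17, and for GPX3 2.12, 0.44 and 1.26. A value of at least 1.5 was reached in TR1 by 5.35% of all genes and by 3 of these 4. In TR2 these figures were 4.87% and 1 gene, and for TR3 they were 5.89% and 2 genes. Just inside that limit lay SELENOO in TR1 and TR2, and just outside it SELENOP in TR2. Since the genes were chosen by the study on these calves, these counts are a description. For SELENOP in TR1, the difference of 0.27 between the group means was smaller than the SD of 0.41 between calves within the pair of groups, whereas for GPX1 in TR3 the difference of 0.39 exceeded the SD of 0.29.

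Neither offspring sex nor dam age separated the levels of any of the 4 genes beyond the spread between calves. Female vs. male log2 differences were -0.04 for SELENOP (SE 0.12), 0.14 for SELENOO (SE 0.11), 0.06 for GPX1 (SE 0.12) and 0.27 for GPX3 (SE 0.20), and none was among the 6.61% of all genes under 0.05 before adjustment or the 0.0309% called after it. Single calves set these sizes, since the sex difference of SELENOO was 0.0059 without calf A2052, that of GPX3 0.084 without calf A2047 and that of GPX1 0.018 without calf A2099. For each year of dam age, GPX3 differed by -0.15 on the log2 scale (SE 0.08, p = 0.0675 by edgeR's test) and by -0.09 without calf A2047. SELENOP differed by -0.07 per year (SE 0.05). Of all genes, 3.36% had an unadjusted p under 0.05 for dam age. A term for a different supplement effect in females and males was 0.47 for SELENOO (SE 0.24, unadjusted p = 0.0558 by edgeR), 0.41 for SELENOP (SE 0.26), 0.10 for GPX1 (SE 0.26) and 0.66 for GPX3 (SE 0.44), where 3.32% of all genes had an unadjusted p under 0.05. All adjusted p-values for that term were 1.00 by edgeR's test, and TR1 held only 2 females. With 1 calf left out it ran from 0.31 to 0.61 for SELENOO, 0.25 to 0.49 for SELENOP and 0.38 to 0.83 for GPX3.

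Over the 38 calves as a whole, SELENOP ranged 2.58-fold, with a coefficient of variation of 24.9%. SELENOO ranged 3.40-fold, with 27.2%, and GPX1 2.96-fold, with 24.5%. GPX3 ranged 9.91-fold, with 51.1%, and at its lowest count of 36 counting error alone gives a coefficient of variation of 16.7%. The biological coefficient of variation fitted by edgeR was 24.5% for SELENOP and 39.0% for GPX3, at the 49.2nd and 80.7th percentiles of all genes.

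No pair of the 4 genes passed an adjusted permutation p of 0.05 across calves with TMM, whereas 4 of the 6 pairs passed with library size in its place: SELENOP with SELENOO (r = 0.50), with GPX1 (0.37) and with GPX3 (0.49), and SELENOO with GPX3 (0.36). With TMM, Pearson's r of log2 CPM was 0.38 for SELENOP and SELENOO (Spearman's rho 0.36, permutation p = 0.0200 and adjusted p = 0.120 over the 6 pairs). For SELENOP and GPX3 it was 0.33 (rho 0.41, permutation p = 0.0415, adjusted p = 0.124). The other pairs had r of 0.25 for SELENOP and GPX1, -0.22 for SELENOO and GPX1, 0.18 for SELENOO and GPX3 and -0.23 for GPX1 and GPX3, each with a permutation p of at least 0.130. Without the 2 calves with the most extreme SELENOP values, A2057 and A2079, the SELENOP and SELENOO pair had r = 0.46 (adjusted permutation p = 0.0257). Without calf A2052 alone it had r = 0.27, and without calf A2033 alone r = 0.45. The lowest adjusted permutation p of that pair with 1 calf left out was 0.0306, which passed. Within groups, after dam age, sex and group were removed, that pair had r = 0.42 (adjusted permutation p = 0.0569). By group its r was 0.38 in the CTR calves, 0.54 in those of TR1, 0.44 in those of TR2 and 0.12 in those of TR3. Without calves A2052 and A2099, r was 0.06 for SELENOO and GPX1 and -0.05 for SELENOO and GPX3, so that the sign of both rested on those calves.

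All calves share 1 laboratory and 1 library protocol, and the labels name no batch. Marker lists of cell types and states were set beside each gene over the calves, as the mean z-score of the genes of a list. Their symbols came largely from tables of genes that had passed the study's criterion in these calves. Counts of list genes by sign or unadjusted p against CTR, here and below, are therefore not independent evidence. Of 32 pairs of gene and list, 9 had an adjusted permutation p under 0.05 by Pearson's r, 2 by Spearman's rho, and none once the 2 calves with the most extreme list values were left out (lowest adjusted permutation p 0.143). The relations below therefore rest in part on those calves. The other 23 pairs had r between -0.37 and 0.38, among them all pairs with the adipocyte, vascular, macrophage and leukocyte, and erythroid lists. Some of them passed with library size in place of TMM. These were SELENOP with the vascular list (r = 0.44, adjusted permutation p = 0.0203) and SELENOO with the skeletal muscle list (r = -0.47, adjusted permutation p = 0.0188). SELENOO with the erythroid list (r = -0.39, adjusted permutation p = 0.0466) and GPX3 with the glucocorticoid and fasting list did so too. Of these 23, 1 passed within groups, after dam age, sex and group were removed: SELENOO with the erythroid list (4 of 4 genes measured), at r = -0.41 (adjusted permutation p = 0.0433), against r = -0.37 over all calves (adjusted permutation p = 0.0612) and -0.36 without calves A2042 and A2066. Its r was negative in each of the 4 groups. All 4 erythroid genes had a negative log2 fold change in each supplemented group, with medians of -0.74 for TR1, -0.85 for TR2 and -0.64 for TR3, and none was under an unadjusted p of 0.05.

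The glucocorticoid and fasting list (11 of 11 genes measured, among them NAMPT, FKBP5, PDK4 and TRIM63) went with SELENOO at r = 0.67 (rho 0.52, adjusted permutation p = 0.000960) and with SELENOP at r = 0.56 (rho 0.58, adjusted permutation p = 0.00272). Each of its 11 genes had a positive r with both. GPX1 went the other way, at r = -0.43 (rho -0.21, adjusted permutation p = 0.0300), and GPX3 had r = 0.38 (adjusted permutation p = 0.0612). With library size in place of TMM, GPX1 no longer passed (r = -0.23) and GPX3 did (r = 0.49). Without calves A2052 and A2099 the values were 0.42 for SELENOO, 0.41 for SELENOP, -0.19 for GPX1 and 0.19 for GPX3. Within groups, after dam age, sex and group were removed, they were 0.61 for SELENOO, 0.56 for SELENOP, -0.45 for GPX1 and 0.37 for GPX3 over all calves. In CTR, TR1, TR2 and TR3 taken singly, r was 0.25, 0.81, 0.63 and 0.22 for SELENOO. For SELENOP it was 0.52, 0.79, 0.53 and 0.27, for GPX1 -0.11, -0.33, -0.80 and -0.14, and for GPX3 0.38, 0.53, 0.41 and 0.11. Calf A2052 ranked first of 38 in the list score, in SELENOP and in SELENOO, and ranked 36th in GPX1. Calf A2099 ranked at place 2 in the score and in SELENOO, at place 3 in SELENOP and at place 38 in GPX1.

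The summed level of that list lay between 513 and 1634 CPM in CTR calves, 572 and 7644 CPM in TR1 calves, 775 and 3892 CPM in TR2 calves and 598 and 1258 CPM in TR3 calves. With its score added as a linear term, the log2 fold change of SELENOP against CTR was 0.11 for TR1, 0.05 for TR2 and 0.28 for TR3, and that of SELENOO was 0.14, 0.12 and -0.12. GPX1 then had 0.24, 0.15 and 0.30, and GPX3 had 0.30, -0.09 and 0.11. Without calves A2052 and A2099 the differences were 0.14, 0.16 and 0.22 for SELENOP, 0.12, 0.23 and -0.15 for SELENOO and 0.23, 0.09 and 0.33 for GPX1, and for GPX3 they were 0.35, -0.0095 and 0.012. The TR1 and TR2 values of SELENOP and SELENOO were thus smaller with the score in the fit. Of the TR3 values, that of SELENOP was higher than the 0.21 without the score, and that of GPX1 was slightly lower than 0.34. The TR3 value of SELENOO was smaller in size than without the score. In TR1 and TR2 the GPX1 values were larger with the score in the fit. All 11 genes of the list had a positive log2 fold change in TR1 (median 0.60) and in TR2 (median 0.83). In TR3, 2 of 11 did (median -0.30). The medians over all genes tested were 0.00, 0.01 and -0.01. By edgeR's test 0 of the 11 were under an unadjusted p of 0.05 in TR1, 2 in TR2 and 0 in TR3. Of all genes 2.55%, 8.34% and 1.35% were. The symbols of the list came largely from the study's tables of genes picked in these calves, so these counts are a description. Both fits were chosen after the data were seen, and no value in them passed an adjusted p of 0.05 by edgeR's quasi-likelihood test.

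**Figure D3:**
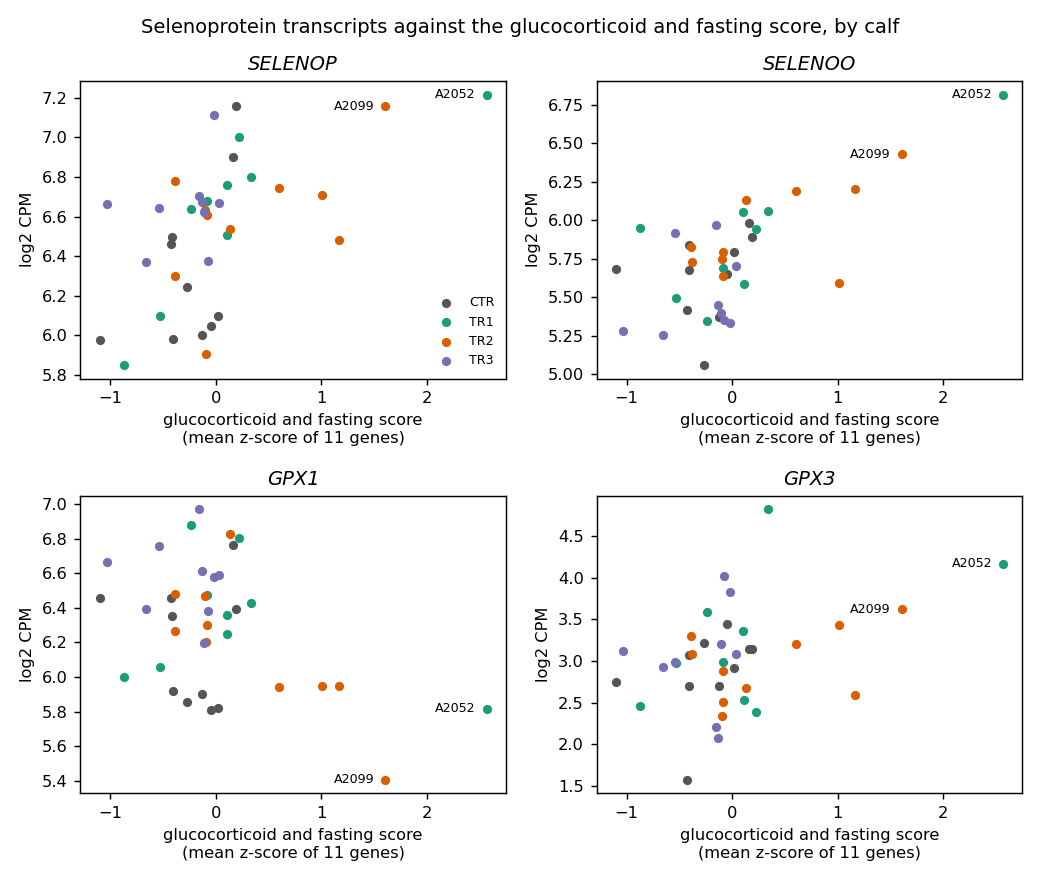
Log2 CPM of each gene against the glucocorticoid and fasting score (mean z-score of 11 genes), 1 point per calf, coloured by group, with calves A2052 and A2099 named. SELENOP and SELENOO lie higher in calves with a high score (r = 0.56 and 0.67) and GPX1 lies lower (r = -0.43), with the named calves at the right end.

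Muscle and matrix markers gave the other relations. SELENOP was lower in calves with more of the skeletal muscle list (8 of 8 genes, each with a negative r), at r = -0.49 (rho -0.42, adjusted permutation p = 0.0162), and r was -0.44 without calves A2040 and A2052. GPX3 had r = -0.43 with that list (adjusted permutation p = 0.0300) and -0.28 without the same calves, and within groups it did not pass (r = -0.39, adjusted permutation p = 0.0527). The summed muscle marker level lay between 93099 and 150419 CPM in CTR calves, 35671 and 145776 CPM in TR1 calves, 84920 and 154572 CPM in TR2 calves and 67521 and 154064 CPM in TR3 calves. Against CTR the log2 fold change was negative for 8 of its 8 genes in TR1 (median -0.22). It was negative for 4 in TR2 (median -0.01) and for 2 in TR3 (median 0.07). In each group 0 of the 8 were under an unadjusted p of 0.05 by edgeR's test. With the developmental fibre list (MYH3, MYH8, MYOG and MYOD1), r was -0.44 for SELENOP (adjusted permutation p = 0.0228) and -0.43 for SELENOO (adjusted permutation p = 0.0355), and -0.36 and -0.13 without calves A2035 and A2052. That list summed to between 86.1 and 665 CPM in CTR calves, 25.6 and 352 CPM in TR1 calves, 160 and 408 CPM in TR2 calves and 156 and 507 CPM in TR3 calves.

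GPX1 was higher in calves with more of the fibroblast and matrix list (11 of 12 genes matched by symbol, each with a positive r), at r = 0.48 (rho 0.42, adjusted permutation p = 0.0215), and r was 0.33 without calves A2052 and A2099. SELENOO had r = -0.45 with it (rho -0.28, adjusted permutation p = 0.0228) and -0.20 without those calves, and with library size it had -0.33 and did not pass. Its summed level lay between 484 and 1239 CPM in CTR calves, 257 and 1338 CPM in TR1 calves, 336 and 678 CPM in TR2 calves and 412 and 1145 CPM in TR3 calves. In TR2 all 11 genes of this list had a negative log2 fold change against CTR (median -0.57, beside 0.01 over all genes tested), and 10 of them were under an unadjusted p of 0.05 by edgeR's test, where 8.34% of all genes were. None was called after adjustment. The symbols of this list came largely from the study's tables of genes picked in these calves, so the count of 10 is a description. In the other groups 5 of 11 (TR1) and 8 of 11 (TR3) were negative, and 0 were under 0.05 before adjustment. No gene of the glucocorticoid and fasting, skeletal muscle, developmental fibre or fibroblast and matrix lists was at 0 counts in any calf, and of the erythroid list ALAS2 was at 0 in 1 calf. The part of these cell types in the differences between groups was not tested.

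**Figure D4:**
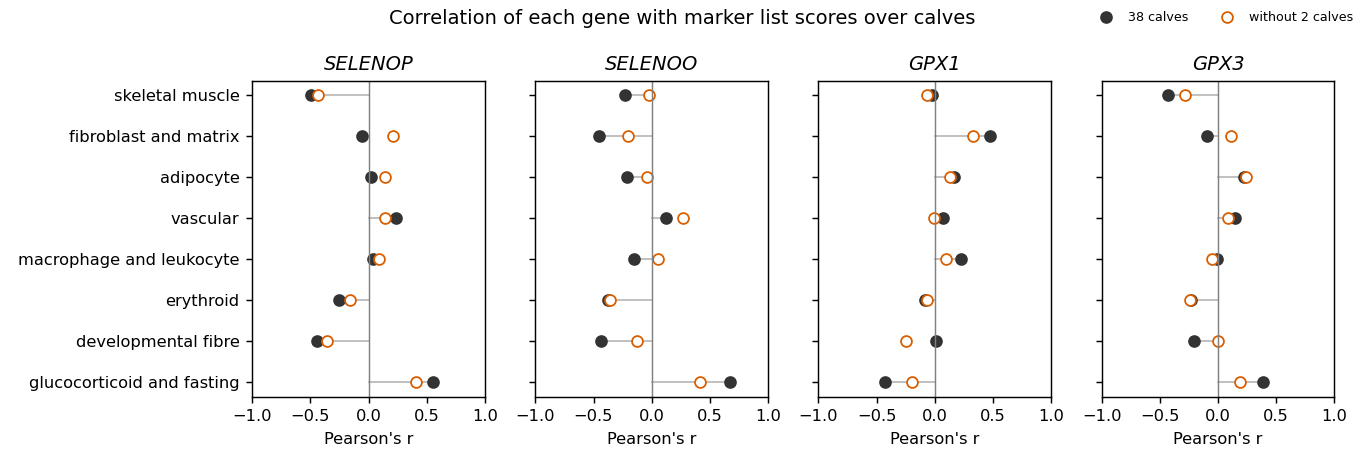
Pearson's r of each gene with the score of 8 marker lists over 38 calves (filled) and without the 2 calves farthest from the median of that list (open). The pairs with the glucocorticoid and fasting list move toward 0 without those calves, from 0.67 to 0.42 for SELENOO and from -0.43 to -0.19 for GPX1.

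The genes whose levels across calves were most like those of each selenoprotein were sought among 2576 genes with a matched symbol and a mean of at least 1 CPM, after dam age, sex and group were removed. For SELENOP they were PCMTD2 (r = 0.75), SLC4A7 (0.71), GALNT15 (0.71), VOPP1 (0.69) and ADCY6 (0.69), and the most opposed were PLXNA1 (-0.79) and HMGCS1 (-0.76). For SELENOO they were FNTB (0.71), TGIF1 (0.70), LPIN1 (0.69), ZFP57 (0.68) and SNED1 (0.68), and the most opposed were ADH5 (-0.68) and AMN1 (-0.66). For GPX1 they were CHCHD10 (0.78), ACAT1 (0.76), S100B (0.70), ZNF385A (0.70) and SIX2 (0.70), against MPP6 (-0.72) and AGAP1 (-0.72). GPX3 had the weakest partners, MCF2L (0.59), PXMP2 (0.59), DEPDC7 (0.58), FAM13A (0.58) and FNBP1L (0.58), against PDSS2 (-0.61) and ORAI1 (-0.60). Symbols came from the study's tables of genes and regulators picked in these calves, so genes outside those tables could not be named. Over 11676 genes with or without a matched symbol, 15 had a higher r with SELENOP than ADCY6, and 8 with SELENOO than SNED1. For GPX1, 25 were above SIX2, and for GPX3, 11 were above FNBP1L. No gene was named for more than 1 of the 4 selenoproteins. These values are over 38 calves and were picked as the extremes of many, so they carry no p.

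Of 38 further genes of selenium handling, 7 could be matched to a row and all 7 were tested. Their symbols came largely from tables of genes that had passed the study's criterion in these calves, so their direction is not independent evidence, and the other 31 were not analysed here. None was called at 0.05 in any comparison with CTR by edgeR's quasi-likelihood test. The log2 fold change was negative for 7 of the 7 genes in TR1, for 6 in TR2 and for 4 in TR3, with medians of -0.17, -0.21 and -0.17, beside medians of 0.00, 0.01 and -0.01 over all genes tested. The study's choice of genes bears on both sets, so their signs are not set against each other here.

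GPX8, a family member without selenocysteine in the endoplasmic reticulum, ran from 20.7 to 27.7 CPM in CTR (median 24.2) and from 11.5 to 25.9 CPM in TR2 (median 18.5). Its log2 fold change in TR2 was -0.39 (SE 0.13, unadjusted p = 0.00442, adjusted p = 0.507 by edgeR's test), and it was -0.33 without calves A2052 and A2099. All 11 matched genes of the fibroblast and matrix list were lower in TR2 as well, and their part in the GPX8 value was not tested. PSTK, the kinase that acts on the selenocysteine tRNA, had -0.47 in TR1 (SE 0.23, unadjusted p = 0.0431, adjusted p = 1.00 by edgeR), -0.43 in TR2 and 0.08 in TR3. SCLY, the lyase that frees Se from selenocysteine, had -0.35 in TR3 (SE 0.15, unadjusted p = 0.0236, adjusted p = 1.00 by edgeR), -0.17 in TR1 and -0.14 in TR2. LRP8, a receptor for SELENOP, had -0.63 in TR1 with a wide error (SE 0.37), at a CTR median of 0.853 CPM. The selenoprotein MSRB1, a methionine sulfoxide reductase, had -0.20, -0.03 and 0.03 in TR1, TR2 and TR3. SARS1, which charges the tRNA with serine, had -0.16, -0.37 and 0.14, and SELENBP1, a selenium-binding protein, had -0.01, 0.08 and -0.23. With 1 calf left out, several of these values moved widely: in TR1, SCLY ran from -0.33 to -0.087, MSRB1 from -0.29 to -0.069 and SARS1 from -0.42 to -0.029. SCLY ran from -0.18 to -0.066 in TR2, and SELENBP1 from 0.018 to 0.25 in TR2 and from -0.30 to -0.063 in TR3.

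**Figure D5:**
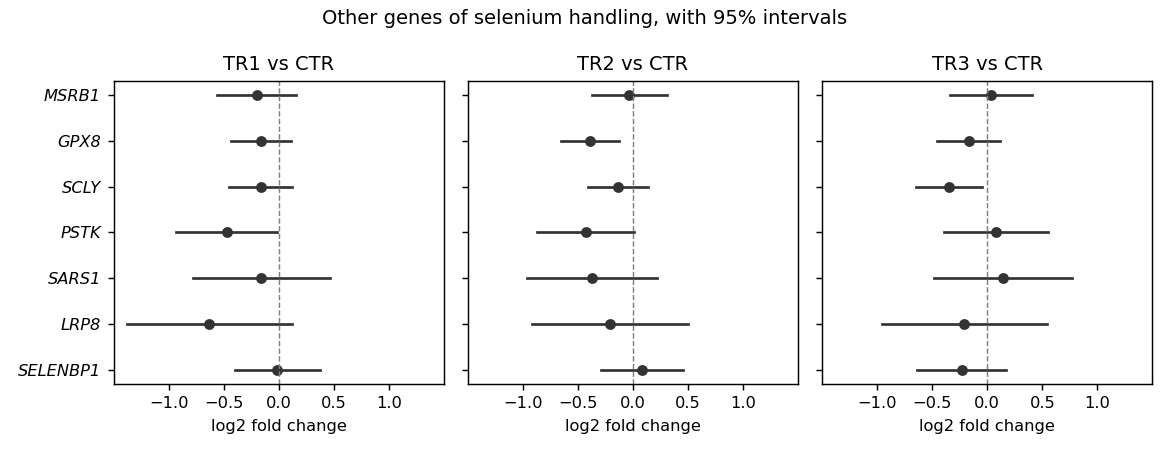
Log2 fold change with its 95% interval for the 7 other genes of selenium handling in TR1, TR2 and TR3 vs. CTR, with the dashed line at 0. Intervals leave out 0 for PSTK in TR1 (-0.47), GPX8 in TR2 (-0.39) and SCLY in TR3 (-0.35), and none passed adjustment over all genes.

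Genes of glutathione, thioredoxin and other redox systems, which work beside the glutathione peroxidases, were taken from a list of 62 symbols, of which 33 were matched and tested, again largely through symbols from tables of genes that had passed the study's criterion in these calves. None passed an adjusted p of 0.05 by edgeR's quasi-likelihood test. At an unadjusted p under 0.05, TR1 had 3 that were higher and 0 that were lower, TR2 had 4 and 1, and TR3 had none, beside 2.55%, 8.34% and 1.35% of all genes under 0.05 in either direction. Their median log2 fold changes were 0.12, 0.09 and -0.01. In TR1 the smallest p-values belonged to HMOX1, which degrades heme (1.13, SE 0.49), CHAC1, which degrades glutathione (1.06, SE 0.50), and catalase, CAT (0.30, SE 0.15). Without calf A2057 the CHAC1 value was 0.63, and without calf A2040 that of CAT was 0.17. In TR2 they belonged to SRXN1, which repairs peroxiredoxins (1.61, SE 0.63), CTH of the transsulfuration pathway (0.79, SE 0.31) and HMOX1 (1.12, SE 0.47). Without calf A2100 the SRXN1 value was 0.44, and without calf A2023 that of CTH was 0.47. In TR3 they belonged to CTH (0.66, SE 0.34), TXNIP, a thioredoxin inhibitor (-0.58, SE 0.31), and the glutathione transferase GSTT1 (-0.44, SE 0.28), and with 1 calf left out TXNIP ran from -0.67 to -0.37 and GSTT1 from -0.69 to -0.37. HMOX1 reached 70.5 CPM in calf A2052 and 25.6 CPM in calf A2099, against a CTR maximum of 7.17 CPM, and without both calves its log2 fold change was 0.21 in TR1 and 0.42 in TR2. With the glucocorticoid and fasting score as a term, the HMOX1 value in TR2 changed sign, from 1.12 to -0.017.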

How the data were processed

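Strand-specific poly-A libraries of LD muscle were sequenced as paired reads. Per the labels and the study's methods, reads were trimmed and filtered on quality, and the authors mapped them to ARS-UCD1.2 with STAR 2.7.3a. The deposited values are raw counts per Ensembl gene from STAR, and the strand column kept is not given in the sources used here. Whether GPX1 or its relatives share reads with near-identical copies was not tested, and gene lengths were not used, so levels are not compared between genes. The authors' own comparisons were not used.

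From the counts, edgeR 4.0.16 (filterByExpr, TMM, quasi-likelihood F-test) was fitted to all 38 calves with dam age (linear), sex and group, and p-values were adjusted by Benjamini-Hochberg over 12964 genes and called at 0.05. The SE of a log2 fold change was obtained from its F value. Log2 CPM used a prior count of 2. Comparisons with CTR share the CTR calves. Standardized differences came from DESeq2 1.42.0 (VST). Correlations used 100000 two-sided permutations, the smallest possible p being 1e-05. The test was tried on simulated counts.

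Named genes are the 4 selenoproteins, every matched gene of the selenium list, the 3 redox genes with the smallest p per comparison with CTR, and the 5 most alike and 2 most opposed genes of each selenoprotein. Symbols came from the supplementary gene tables, which hold genes and regulators that the study had picked in these calves. The genes and lists were chosen with earlier results of these data known. Alternatives were DESeq2, library size, no filter, other covariates, a fit to single pairs of groups, and leaving out each calf. Analyses ran in R 4.3.3 and Python 3.11.15 (numpy 2.4.6, scipy 1.17.1, pandas 2.3.3, matplotlib 3.10.9).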

Additional observations from a re-analysis of the deposited data

Results flagged for a closer look

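Each of the 4 genes was checked in each of the 4 groups, 16 checks in all, for a calf that stood far from the rest of its group, which chance gives in about 1 of 20 groups. Calf A2052 of TR1 had 112.7 CPM of SELENOO, and its gap to the next calf was 0.640 of the group's range, above the limit of 0.493 for 9 calves. Calf A2033 of TR3 had 138.1 CPM of SELENOP, with a gap of 0.611 of the range. In all, 2 of the 16 checks gave such a calf. Without calf A2052 the log2 difference of SELENOO in TR1 vs. CTR was 0.12 in place of 0.26, and without calf A2033 that of SELENOP in TR3 vs. CTR was 0.14 in place of 0.21.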

How the results depend on the processing

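Of 120 values of SELENOP, SELENOO, GPX1 or GPX3 against CTR from 10 other settings, 0 passed an adjusted p of 0.05 (lowest adjusted p 0.525 by edgeR or DESeq2) and 117 kept their sign. With 1 calf left out, 0 of 1672 values over all comparisons passed. For the 7 other selenium genes and the named redox genes against CTR, 0 of 1440 values passed, those with 1 calf left out included, and the genes most alike were not refitted. The fit with the glucocorticoid and fasting score and the fit without calves A2052 and A2099 were chosen after seeing the data. No paired analysis was possible because the labels give the groups no shared replicate numbers and do not name the blocks of the study's design.

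The count of genes called was 1 in TR1 with the number in the calf's name as a term. With DESeq2 it was 1 in TR2, 7 for sex and 1 for the sex by Se term. Without the filter it was 2 in TR3, 11 in TR3 vs. TR1, 4 in TR3 vs. TR2, 11 for sex, 3 for dam age and 13 for any difference, and 2335, 2239 and 2422 genes passed the standardized difference in TR1, TR2 and TR3. With 1 calf left out the count lay between 0 and 1 in TR1, in TR2 and for dam age, between 0 and 2 for the mean of the supplemented groups and between 4 and 8 for sex. The count of genes under an unadjusted p of 0.05, which gives the shares of all genes beside the results, also moved. With 1 calf left out it ran from 224 to 462 in TR1, from 692 to 1459 in TR2 and from 153 to 268 in TR3. It ran from 518 to 1355 in TR2 vs. TR1, 450 to 1069 in TR3 vs. TR1, 794 to 1718 in TR3 vs. TR2, 254 to 682 for dam age and 707 to 1443 for sex. In TR1 it was 560 with library size, 530 with no covariates and 891 without the filter. In TR2 it was 552 with dam age as a factor, 684 with only TR2 and CTR in the fit and 470 with the glucocorticoid and fasting score as a term. Without the filter it was 1736 in TR2 and 778 in TR3, and with only TR3 and CTR in the fit it was 302 in TR3.

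Some log2 differences changed sign, most of them near 0. With library size in place of TMM, GPX1 in TR2 had -0.020, SELENOP in TR2 vs. TR1 -0.12, SELENOO in TR2 vs. TR1 -0.076, SELENOP in TR3 vs. TR2 0.011 and SELENBP1 in TR1 0.096. With the score as a term, GPX3 in TR2 had -0.093, MSRB1 in TR2 0.17 and in TR3 -0.020, and HMOX1 in TR2 -0.017 in place of 1.12. Without calves A2052 and A2099, GPX3 in TR2 had -0.0095 and MSRB1 0.00069 in TR2 and -0.032 in TR3. PSTK in TR3 had -0.025 with no covariates. With only TR3 and CTR in the fit, TR3 gave -0.11 for PSTK, -0.021 for SARS1 and -0.023 for MSRB1. With 1 calf left out, the ranges were -0.068 to 0.10 (GPX1, TR2), -0.0039 to 0.21 (GPX3, TR2), -0.15 to 0.14 (GPX3, TR3) and -0.28 to 0.030 (GPX3, TR3 vs. TR2). SELENOP ran from -0.062 to 0.091 in TR2 vs. TR1, -0.090 to 0.11 in TR3 vs. TR1, -0.11 to 0.034 in TR3 vs. TR2 and -0.12 to 0.0067 for sex, and SELENOO from -0.012 to 0.17 in TR2 vs. TR1. The sex by Se term of GPX1 ran from -0.037 to 0.21. MSRB1 ran from -0.10 to 0.028 in TR2 and -0.042 to 0.10 in TR3, PSTK from -0.027 to 0.18 and SARS1 from -0.033 to 0.32 in TR3, and SELENBP1 from -0.13 to 0.17 in TR1. The cause was not tested.

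With library size, r was 0.50 for SELENOP and SELENOO, 0.37 for SELENOP and GPX1, 0.49 for SELENOP and GPX3 and 0.36 for SELENOO and GPX3, and these 4 pairs then passed an adjusted permutation p of 0.05. Without the 2 most extreme calves it was 0.46 for SELENOP and SELENOO, 0.056 for SELENOO and GPX1 and -0.047 for SELENOO and GPX3. With 1 calf left out, SELENOP and SELENOO had 0.27 to 0.45, with a lowest adjusted permutation p of 0.0306. With library size or within groups, relations with lists that changed sign were SELENOP with the fibroblast list (0.075 with library size, 0.016 within groups), GPX3 with that list (0.061 with library size), SELENOP with the adipocyte list (-0.044 within groups), GPX3 with the macrophage and leukocyte list (0.078 and 0.050) and GPX1 with the developmental fibre list (-0.14 and -0.046). Without the 2 calves most extreme in the list, r changed sign for SELENOP (0.21) and GPX3 (0.11) with the fibroblast list, GPX1 with the vascular list (-0.011), SELENOO with the macrophage and leukocyte list (0.056), and GPX1 (-0.25) and GPX3 (0.0019) with the developmental fibre list.

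Depth limits GPX3 most, with 36 counts in its lowest calf. The intervals of SELENOP against CTR hold both no difference and 1.47 times the CTR level, so with 9 or 10 calves a group these cannot be told apart.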
